A study of Drosophila melanogaster with 2 samples.

Results

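The binding of MTF-1 was examined at 7 genes that make, break down or use glutathione, out of 13945 protein-coding genes on 6 chromosomes or arms. The genes were chosen by function and by name: Gclc, Gclm, Gss1, Gss2, Ggt-1, GstD1 and GstS1. Every region with a summit in the gene or within 5 kb of it was taken, and regions were compared by rank of signal within each list. The data come from chromatin immunoprecipitation sequencing (ChIP-seq) of whole Drosophila melanogaster embryos, aged 0 to 24 h and of both sexes. All embryos belonged to 1 group, a transgenic fly line with a stable MTF-1 fusion that carries GFP at the C terminus. There were 2 biological replicates, numbered 2 and 4. The labels give no untagged or metal-treated group and do not name the promoter of the fusion, and their free text calls both libraries inputs although the titles and the antibody label describe MTF-1 ChIP. The values are used here as those of MTF-1 immunoprecipitates, on the basis of the titles and the antibody label. The read-me names a further file as a shared source of the peak lists, which does not settle the conflict. The labels do not say whether the replicates came from separate crosses. Nothing below compares conditions, and with 2 samples of 1 group no test over samples could be made.

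Glutathione is a tripeptide of glutamate, cysteine and glycine whose thiol takes up oxidants and binds metals such as copper, zinc and cadmium. Glutamate-cysteine ligase makes the first bond in the rate-limiting step, glutathione synthetase adds glycine, gamma-glutamyl transpeptidases cleave glutathione outside cells, and glutathione S-transferases attach it to other molecules. MTF-1, metal regulatory transcription factor 1, is the zinc-finger activator of metallothionein genes and binds metal response elements (MREs). In the mouse, the gene for the catalytic subunit of glutamate-cysteine ligase has been described as an MTF-1 target.

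Ggt-1, a gamma-glutamyl transpeptidase gene, stood far above the other glutathione genes, with the region of rank 8 in the pooled list. The best regions of the other members ranked 835 at Gclc, 1369 at GstD1, 1958 at GstS1, 2613 at Gclm, 11283 at Gss1 and 19946 at Gss2. The authors' thresholded list holds 3587 peaks, which are exactly the 3587 strongest of the 30000 pooled regions, so 5 of the 7 genes had a thresholded peak. Gss1 and Gss2 had none, but most of the sequence in their windows is repeated in the genome, as given below. Among all protein-coding genes 38.7% had a thresholded peak by the same window, and the 7 genes were longer (median 6324 bp against 2166 bp). In the gene or within 1 kb the count was 4 (22.4% of all genes), and within 10 kb it was 6 (52.8%). Within 1 kb of a transcript start, 3 had a peak (17.0%), and 2 did as the gene with the nearest start (15.6%). The stronger 50% of the thresholded list reached 3 of the genes (24.5%). Among the strongest 3587 regions of a single replicate, 5 genes had one in replicate 2 (37.0%) and 5 in replicate 4 (39.4%). Candidate regions of any rank are common, and 7 of the 7 genes had one in the pooled list (87.7% of all genes), 6 in replicate 2 (89.4%) and 6 in replicate 4 (87.5%). The 5 genes had 8 thresholded peaks in all, and 3 of these had a member as the gene with the nearest transcript start.

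**Figure D1:**
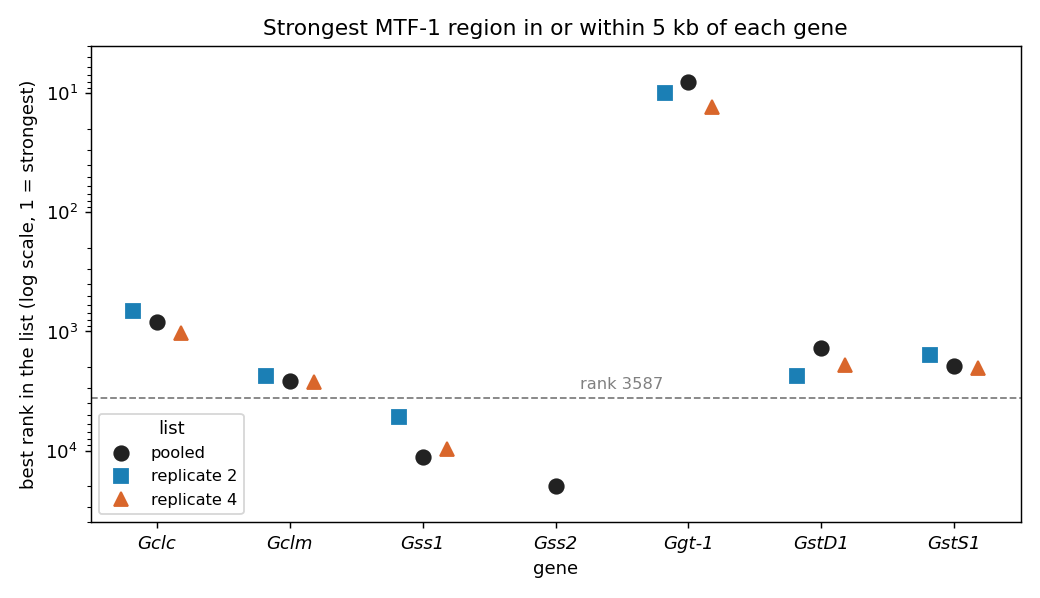
Best rank (log scale, rank 1 is the strongest) of any region in or within 5 kb of each gene, in the pooled list (circles) and the lists of replicate 2 (squares) and replicate 4 (triangles). Ggt-1 lies at ranks 8, 10 and 13, Gss1 lies below the dashed line at rank 3587 in all 3 lists, and Gss2 has no point for either replicate.

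Sequences are given on the plus strand of dm6, 5′ to 3′, to show what lies under these peaks. Capitals mark the MRE core, written TGCACNC or TGCGCNC and searched on both strands. The first pair comes from the Ggt-1 peak at chrX:18512198-18512648, which held 2 cores. One line covers chrX:18512370-18512399, and the other covers chrX:18512522-18512648, the part of the peak before the outer transcript start.

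Ggt-1 core near the summit: cttgtattcccTGCACACgacccactaccg
Ggt-1 before the outer start: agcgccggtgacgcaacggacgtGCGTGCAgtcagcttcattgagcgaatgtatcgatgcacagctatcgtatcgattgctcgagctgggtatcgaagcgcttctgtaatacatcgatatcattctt

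The next 4 windows, each centred on a summit and free of annotated UTRs, held no core. The windows are chrX:18507291-18507391 in an intron of Ggt-1, chrX:8100141-8100241 downstream of Gclc, chr3R:22684176-22684276 downstream of Gclm and chr3R:12369906-12370006 upstream of GstD1. The fifth sequence is the part of the second Gclm peak before its transcript start, at chr3R:22686511-22686625.

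Ggt-1 intron: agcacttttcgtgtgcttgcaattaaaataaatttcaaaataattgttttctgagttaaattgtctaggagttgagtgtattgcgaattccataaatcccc
Gclc downstream: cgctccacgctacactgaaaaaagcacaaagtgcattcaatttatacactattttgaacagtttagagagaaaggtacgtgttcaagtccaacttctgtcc
Gclm downstream: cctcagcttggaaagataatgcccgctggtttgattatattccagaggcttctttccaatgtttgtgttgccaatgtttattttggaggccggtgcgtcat
GstD1 upstream: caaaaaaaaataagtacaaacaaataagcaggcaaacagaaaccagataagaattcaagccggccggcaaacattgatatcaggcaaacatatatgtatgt
Gclm before the start: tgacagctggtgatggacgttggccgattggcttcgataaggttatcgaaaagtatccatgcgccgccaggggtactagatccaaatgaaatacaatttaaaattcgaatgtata

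Of the 8 thresholded peaks of the members, 1 had a core within 50 bp of its summit, the strongest Ggt-1 peak. In the whole thresholded list 11.4% of peaks had one. The Ggt-1 core TGCACAC lay at chrX:18512381-18512387, 33 bp from the summit, and a second core, TGCACGC on the minus strand at chrX:18512545-18512551, lay 131 bp away. Elsewhere the nearest cores were 58 bp from the summit of a peak downstream of Gclc and 102 bp from that of the intronic Ggt-1 peak.

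Glutathione breakdown was represented by Ggt-1 (FBgn0030932, chrX:18505883-18512521, minus strand). Its main peak had a signal of 1367 in the pooled list, 32.5 times that list's median. The same place ranked 10 in replicate 2, at 23.0 times the list median, and 13 in replicate 4, at 31.4 times. The summits lay at 18512417 in the pooled list, 18512412 in replicate 2 and 18512418 in replicate 4, between the annotated starts of the gene and inside its annotated 5′ UTR. The pooled summit was 80 bp from the nearer start. Only 27 protein-coding genes (0.194%) had a better pooled rank in their own windows. The upstream stretch printed above also holds 3 copies of TATCGAT, counted on both strands, a sequence related to the promoter element DRE. Of all protein-coding genes, 3.79% had 3 or more copies from 250 bp before to 50 bp after a transcript start.

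A second thresholded peak of Ggt-1 lay in an intron, at chrX:18507169-18507512, with rank 1323 and a signal of 178.4. It ranked 1699 in replicate 2 and 1293 in replicate 4, so both replicates held it. Its summit was 4996 bp inside the gene from the nearer Ggt-1 start and 1936 bp from the start of Wnt5, a Wnt ligand gene. Upstream of Ggt-1 the replicates differed. Replicate 2 had a region of rank 2596 at 3941 bp before the start, nearest to the shared start of Bx and HisRS. In replicate 4 the best region within 5 kb upstream ranked 26722, and the pooled region there nearest to the replicate 2 summit ranked 10628.

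By the sum of the differences in log10 rank over the 2 replicate lists, the genes most like Ggt-1 were Bx, CG6470 and HisRS, each with a sum of 0.00. They are its neighbours and were assigned the same peak. The next genes, named after their values were seen, were brwl, CG46468 and jp, which share a peak of rank 8 in replicate 2 and 16 in replicate 4 (sum 0.187). That peak had no core within 50 bp of its summit.

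**Figure D2:**
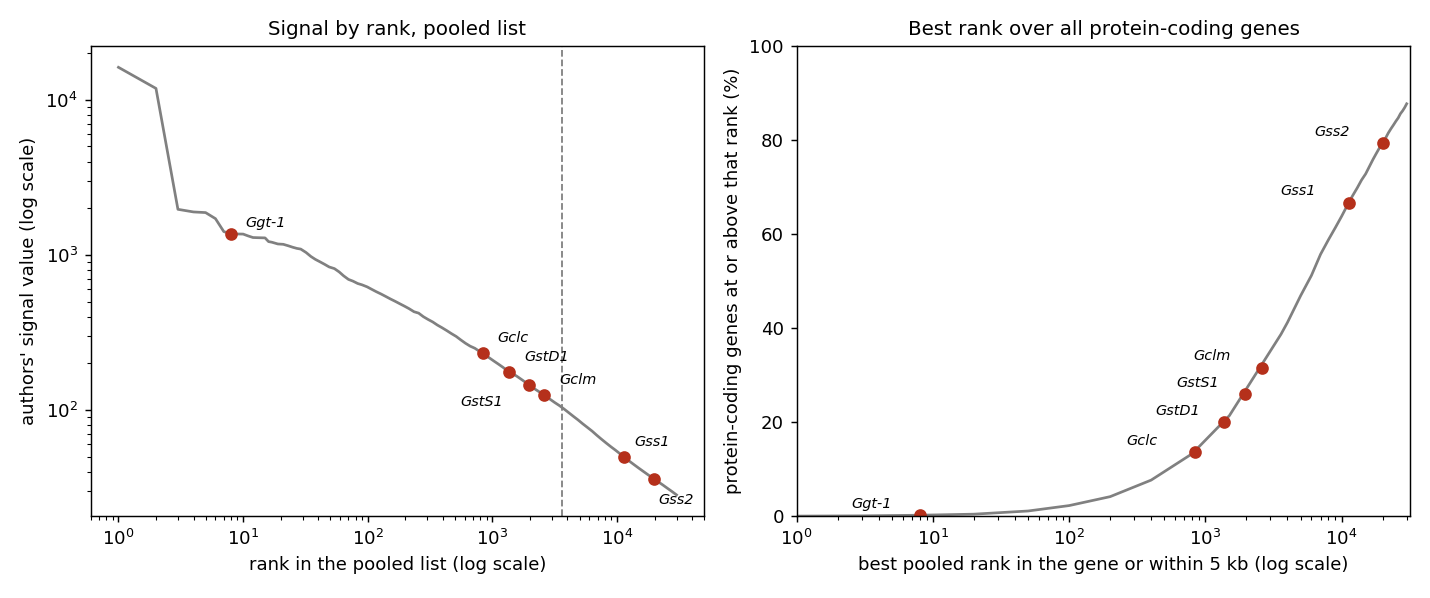
Left, the authors' signal value against rank in the pooled list, both on log scales, with the best region of each glutathione gene marked and a dashed line at rank 3587. Right, the share of protein-coding genes whose best pooled rank reaches a given rank (log scale). Points give the share with a strictly better rank than the gene, 0.194% for Ggt-1, 13.6% for Gclc and 79.3% for Gss2. The windows of Gss1 and Gss2 are mostly repeated sequence.

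Synthesis begins with glutamate-cysteine ligase, whose catalytic subunit is Gclc (FBgn0040319, chrX:8102181-8116147, minus strand) and whose modifier subunit is Gclm (FBgn0046114, chr3R:22685006-22686510, minus strand). Both had 2 thresholded peaks. At Gclc, neither lay in the gene. The peak at chrX:8101611-8101746 had a pooled rank of 835 and a signal of 231.9, and it ranked 678 in replicate 2 and 1037 in replicate 4. Its summit was 499 bp past the 3′ end of Gclc, in an annotated 5′ UTR of CG2258 and 228 bp from a start of that gene, against 4360 bp from a Gclc start. The weaker peak, of rank 1833, lay in an intron of CG2258, 120 bp from a CG2258 start, and ranked 2942 in replicate 2 and 2252 in replicate 4. Both summits thus lay nearer to a start of CG2258 than to any start of Gclc.

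Inside Gclc there were weaker regions. The best intronic one had a pooled rank of 3829, just outside the thresholded list, 1487 bp past a start. It was uneven between replicates, with an overlapping region of rank 11114 in replicate 2 and of rank 2221 in replicate 4. In replicate 4, regions within Gclc introns ranked 2221, 3540 and 3584, all among the strongest 3587 of that list. The best region inside the gene in replicate 2 ranked 5244 and did not overlap the pooled region of rank 3829. At the outermost Gclc start, the pooled region 226 bp away ranked 12044. A better pooled region, of rank 7133, lay 734 bp upstream of an inner Gclc start. It overlapped the replicate 4 region of rank 3584 and no region of replicate 2.

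Gclm had its thresholded peaks at the promoter and past the 3′ end, and the replicates ranked them in opposite order. The promoter peak at chr3R:22686282-22686625 had its summit 56 bp past the start, in the 5′ UTR, with a pooled rank of 3330 and a signal of 108.6. It ranked 2374 in replicate 2 and 5391 in replicate 4. The downstream peak at chr3R:22684054-22684397 had a pooled rank of 2613 and a signal of 124.9, and ranked 6708 in replicate 2 and 2640 in replicate 4. Each of these peaks was thus among the strongest 3587 regions of only 1 replicate. Another region, between the peaks, of pooled rank 3820, held an MRE core within 50 bp of its summit but ranked 28980 in replicate 2 and 3074 in replicate 4. Neither the promoter peak nor the downstream peak had a core within 200 bp of its summit.

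**Figure D3:**
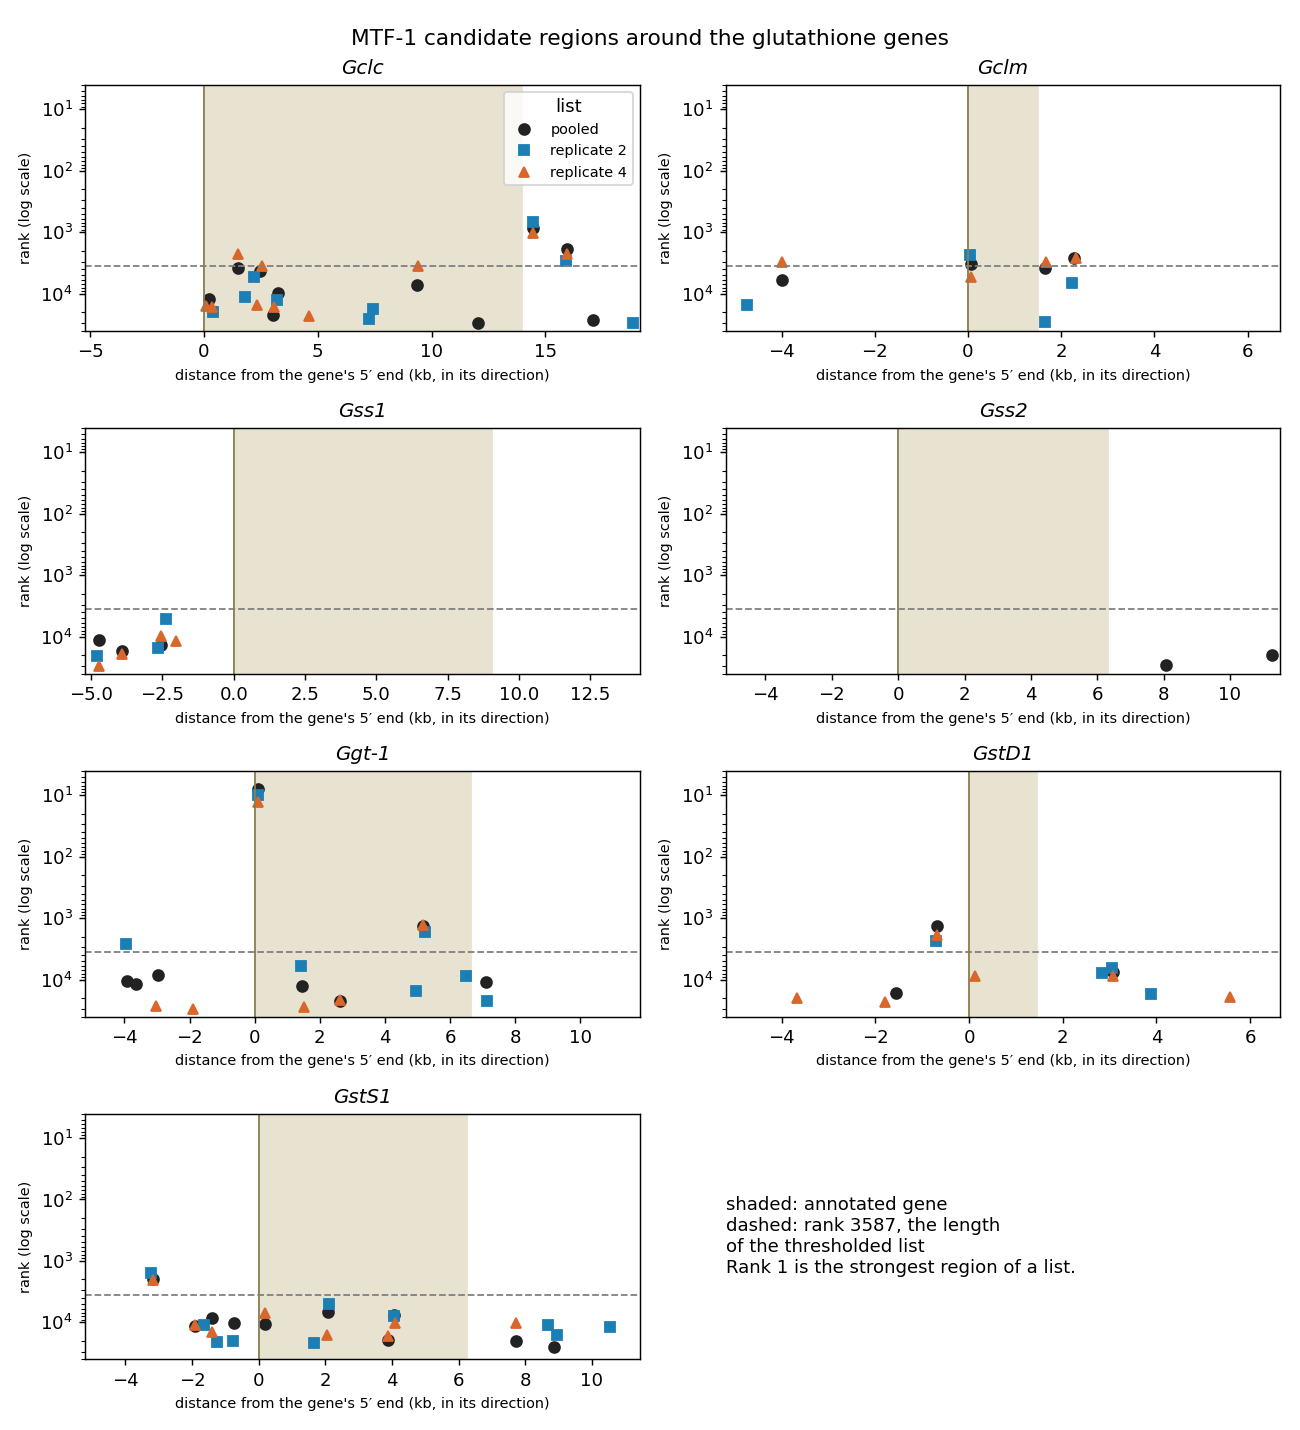
Rank (log scale, 1 is the strongest) of every candidate region against its distance in kb from the 5′ end of each gene, in the direction of transcription, for the pooled list (circles), replicate 2 (squares) and replicate 4 (triangles). Shading marks the annotated gene, and the dashed line marks rank 3587. Only Ggt-1 has points near the top, and Gss1 and Gss2 have none within the gene.

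The second step of synthesis gave no thresholded peak. Gss1 (FBgn0030882, chrX:17889547-17898603) and Gss2 (FBgn0052495, chrX:17899702-17906025) are glutathione synthetase genes in tandem. No list had a region inside either gene. Near Gss1 the best regions ranked 11283 in the pooled list, 5185 in replicate 2 and 9768 in replicate 4, all upstream and nearer to starts of CG12985 or mnb. The pooled one lay in CG12985, where the regions ranked 20948 in replicate 2 and 29781 in replicate 4. Those of the replicates lay in the 5′ UTR of mnb, where the pooled region ranked 13853. At Gss2 the pooled list held 2 regions downstream, of ranks 19946 and 29017, and neither replicate held any. The better one lay 4958 bp past the gene, just inside the 5 kb limit. The nearest thresholded peak to Gss1 lay outside it, 9080 bp away, with rank 892.

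Nearly all of Gss2 has a copy in Gss1, but not the reverse. From 300 bp before to 400 bp after their outer starts, the 701 bases had 0 mismatches. Of the 50-base words in Gss2, 97.9% also occurred in Gss1, and 68.2% of those in Gss1 occurred in Gss2. Words found once in the genome made up 2.42% of Gss1 and 0.637% of Gss2, against 100% to 3 digits in the other 5 genes. Most Gss1 words absent from Gss2 were thus also repeated, in Gss1 itself or elsewhere in the genome. With 5 kb added on each side, single-copy words made up 22.2% of the Gss1 window and 31.7% of the Gss2 window. The windows of the other 5 genes stood at 100% to 3 digits. Among the 376 protein-coding genes with under 50% single-copy words, 6.91% had a pooled region inside, against 41.4% of the other 13569. The sets were not matched for gene length. The read-me names a track of unique reads from the same alignments, not used here, and does not state how repeated sequence was treated in the peak lists. The part of repeated sequence in the absence of regions was not tested. Binding within Gss1 and Gss2 could not be assessed, and in their windows only in part. Each gene has 1 MRE core near a transcript start, in the same 30 bases, shown for chrX:17889729-17889758 and chrX:17899884-17899913.

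Gss1 core: tcgctcgttgaGAGCGCAgcgataagagtt
Gss2 core: tcgctcgttgaGAGCGCAgcgataagagtt

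**Figure D4:**
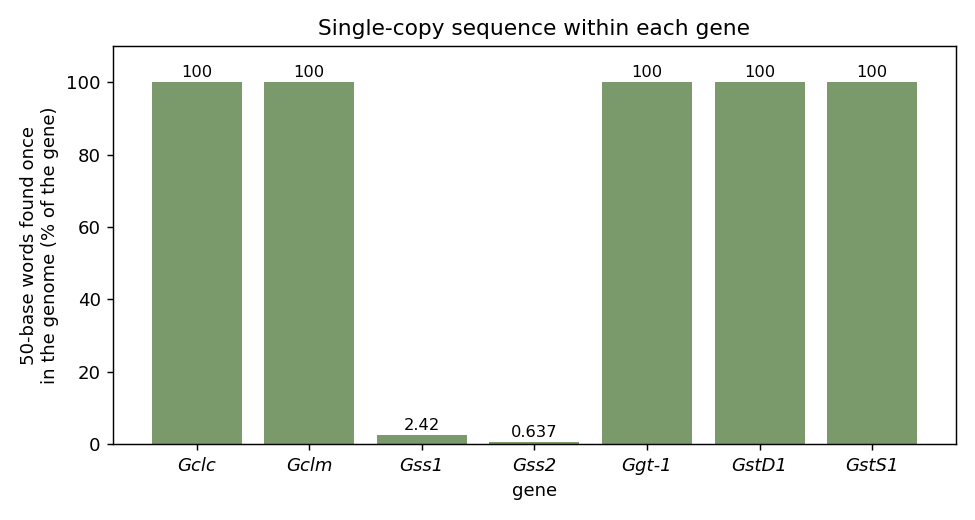
Share of each gene, in percent, whose 50-base words occur once in the genome assembly, on either strand. Gss1 and Gss2 stand at 2.42% and 0.637%, and the other 5 genes at 100%.

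A core from 250 bp before to 50 bp after a transcript start was present at Ggt-1 (2 cores), Gss1 and Gss2 (1 each) and at none of Gclc, Gclm, GstD1 and GstS1. Of all protein-coding genes 24.5% had one. The antioxidant response element, the site of the stress factor CncC, was searched in the same window as TGAC and GC spaced by any 3 bases. It occurred at Gclc, Gss1 and Gss2, and in 11.2% of all protein-coding genes. No match says only that these letters are not in the window.

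The transferase GstD1 (FBgn0001149, chr3R:12367817-12369268, minus strand), a delta-class enzyme, had 1 thresholded peak, at chr3R:12369784-12370127. The peak had a pooled rank of 1369 and a signal of 175.8, and it ranked 2353 in replicate 2 and 1914 in replicate 4. It lay 688 bp upstream of GstD1 and 551 bp from the start of lncRNA:CR46015, with no gene at the summit. No core lay within 200 bp, and none of the 7 cores in the whole GstD1 window lay in a pooled region. At the GstD1 start itself, only replicate 4 had a region, of rank 8880 and 117 bp past the start.

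The sigma-class transferase GstS1 (FBgn0010226, chr2R:17093246-17099501, minus strand) had 1 thresholded peak, 3179 bp upstream. Its pooled rank was 1958 and its signal 145.4. It ranked 1590 in replicate 2 and 2030 in replicate 4, and its summit lay in a 5′ UTR of CG46491, 279 bp from a start of that gene. Regions at the starts of GstS1 were weaker. The pooled list had one of rank 6831, 27 bp from a start. That place ranked 4940 in replicate 2 and 16082 in replicate 4. Another pooled region, 197 bp past the outermost GstS1 start, ranked 10507. The same place ranked 6922 in replicate 4 and held no region in replicate 2.

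In rank order, Ggt-1 led in both replicates (10 and 13), followed by Gclc (678 and 1037). The ranges of GstS1 (1590 and 2030) and GstD1 (1914 and 2353) overlapped, so their order is not set by these replicates. The best Gclm ranks (2374 and 2640) came from different peaks, the promoter peak in replicate 2 and the downstream peak in replicate 4, and each peak on its own differed more (2374 and 5391, 6708 and 2640). Gss1 came last of those with a region in both (5185 and 9768). Only 22.2% of the Gss1 window was single-copy by 50-base words, so its place is not comparable with the others. Over the 8 thresholded peaks, the larger replicate rank was a median of 1.31 times the smaller, against 2.02 times over the 3421 thresholded peaks with a region in both replicates. All but the Gclm peaks, 6 of 8, were overlapped by a region among the strongest 3587 of both replicates, as were 59.0% of all thresholded peaks. Of the 37 replicate 2 regions in the 7 windows, 25 overlapped a replicate 4 region (67.6%, against 53.9% of all replicate 2 regions). With summits at most 100 bp apart the count was 14 (37.8%, against 28.6% of all replicate 2 regions). With 50% overlap of both it was 17 (45.9%, against 35.8%). Regions had a median width of 524 bp in replicate 2 and 344 bp in replicate 4.

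Other genes of glutathione metabolism, thioredoxin genes and 3 regulators were taken from a list of 57 symbols, which stood for 55 genes. Of these genes, 32 (58.2%) had a thresholded peak in the gene or within 5 kb, where 38.7% of protein-coding genes did. Neighbours in clusters shared them, so they rested on 21 peaks. A peak lay within 1 kb of a transcript start in 18 (32.7%, against 17.0%). By role, peaks within 5 kb were found at 19 of 36 transferase genes and 4 of 5 genes of cysteine supply. They were also found at 2 of 3 regulators, 3 of 3 exporters of conjugates and 4 of 8 glutathione and thioredoxin redox genes. Within 1 kb of a transcript start, the transferases had a peak at 6 of 36 genes (16.7%), near the 17.0% of all protein-coding genes. By that rule the count was 3 of 5 for cysteine supply, 2 of 3 for regulators, 3 of 3 for exporters and 4 of 8 for redox genes. The redox genes with a peak were Grx1 and the thioredoxin genes Trx2, TrxT and dhd. The transferases rested on 9 peaks, 1 of them the GstD1 peak, which also counted for GstD2, GstD3, GstD4, GstD9 and GstD10.

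Cbs, the cystathionine beta-synthase gene that leads towards cysteine, had the strongest peak of the list, of rank 163. The best regions in its window ranked 92 in replicate 2 and 397 in replicate 4. The pooled peak lay 6704 bp from a Cbs start and 669 bp from that of Stt3A. Cbs also had a weaker thresholded peak, of rank 3135, within 1 kb of a start of its own. The epsilon-class transferase gene GstE13 had a peak of rank 175, 45 bp from its start, and the best ranks in its window were 552 in replicate 2 and 112 in replicate 4. The peak near the glutaredoxin gene Grx1, of rank 576, lay 65 bp from the start of Dysb and 1524 bp from that of Grx1. A weaker thresholded peak, of rank 3177, lay within 1 kb of a Grx1 start. Keap1, whose product holds CncC in check, had a peak of rank 648 that lay 133 bp from its start with 2 cores within 50 bp of the summit, as 1.37% of thresholded peaks had 2 or more. The microsomal transferase gene Mgstl had one of rank 784, 186 bp from its start. GstE1, GstE2, GstE3, GstE4 and GstE10 shared a peak of rank 875, 16 bp from the start of GstE1.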

How the data were processed

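MTF-1 ChIP-seq peak lists of 2 biological replicates of 1 group were used. The read-me deposited with them describes 3 lists of candidate regions on dm6 (1 per replicate and 1 from both alignments together), from which the fourth was derived by irreproducible discovery rate thresholding. Sonicated fragments were 200 to 800 bp, per the labels. Neither the aligner, the peak caller nor the thresholds are stated, and read depth is unknown, so no counting error could be given. The deposited signal value has no stated scale and served to rank regions within a list. The deposited −log10 q-value, at its maximum in 2273 of 3587 thresholded peaks, served as an alternative ranking. Genes came from Ensembl release 115 (BDGP6.54, the dm6 assembly). All coordinates are 1-based, and 0 regions passed a chromosome end.

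Windows, ranks, core searches (50 bp each side of a summit, and 101 bp in all) and single-copy words were computed with Python 3.11.15, pandas 2.3.3 and numpy 2.4.6, and the assignment and motif code was tested on planted data. The 7 genes and the lists were chosen with earlier results of these data known. The antioxidant element, TATCGAT and the single-copy words were added after the regions were seen. All 7 genes were named, with the nearest gene to each thresholded peak and, of the 55 other genes (57 symbols were listed, Trx-2 and GPx named genes already in the list, and 2 genes had a newer symbol), those with the strongest peaks, ties included. Where a summit window held an annotated UTR, only a core with its surrounds, or the part of the peak outside UTRs, was printed. Nothing was printed for the GstS1 peak, because arm 2R was left out, or for the stronger Gclc peak, in a 5′ UTR. P-values were not computed, because 1 group allows no contrast.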

Additional observations from a re-analysis of the deposited data

How the results depend on the processing

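The count of 5 of 7 genes with a thresholded peak was 5 without replicate 2 and 5 without replicate 4, when the strongest 3587 regions of the remaining replicate were used. It was 4 within 1000 bp of the gene and 6 within 10000 bp. It moved to 3 (Gclm, Ggt-1 and GstD1) within 1000 bp of a transcript start, to 2 (Gclm and Ggt-1) by nearest start, and to 3 (Gclc, Ggt-1 and GstD1) in the stronger 50% of the list. The same rules called 17.0%, 15.6% and 24.5% of protein-coding genes. The 25 replicate 2 regions shared with replicate 4 fell to 14 with summits at most 100 bp apart and were 17 with 50% overlap of both. Thresholded peaks with an MRE core numbered 1 within 50 bp, 2 within 100 bp and 3 within 200 bp, where 11.4%, 20.9% and 36.4% of the thresholded list had one. For the 6 genes with a region in both replicates, 28 best ranks were taken under other settings. On the log10 scale, 12 moved by less than 1 SD of the replicate ranks and 16 by more, 5 of them by −log10 q, which ties most peaks. Leaving out replicate 2 moved 2 of these ranks, and leaving out replicate 4 moved 5. Such settings take the remaining replicate's own rank, which also went into the SD, so they are not a separate check. That SD is smaller than the gap between the replicates. At Gclm the best replicate ranks came from different peaks, whose own ranks differed 2.27-fold and 2.54-fold between replicates. Its SD is thus too small to measure replicate spread. Gss2, with no replicate rank, went from 19946 to 19962 by −log10 q. The lists hold 1 value per region, so counting error could not be given.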
